A study of Mus musculus with 9 samples.

Results

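The PYHIN genes are a family that includes interferon-inducible DNA sensors. For the mouse, 8 names of this family (Ifi207, Ifi203, Ifi204, Ifi205, Ifi211, Mnda, Aim2 and Pyhin1) were looked up among the 18755 genes of an RNA-sequencing table of 4T1 primary tumors. The 8 names led to 7 genes of the table, since Mnda is an older name of Ifi211, and Pyhin1 is listed in RefSeq as Ifi209. The names were chosen by values of the same contrast that is described here, BI 853520 against vehicle in these 9 tumors, so the differences of these genes are given as a description: their p-values are not printed, and where a gene is said to be called, this only states on which side of the threshold used for all genes it fell and is no evidence of a change. The other PYHIN genes with an entry, Ifi202b, Ifi208, Ifi213, Ifi214 and Mndal, bring the family to 12 genes.

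4T1 is a mammary carcinoma cell line of BALB/c mice, and 1000000 cells in 100 µl were placed in mammary fat pad number 9 of female BALB/c mice aged 6 to 10 weeks, whose immune system is intact. BI 853520, an inhibitor of focal adhesion kinase (FAK, a cytoplasmic tyrosine kinase of adhesion signaling), was given by oral gavage at 50 mg/kg for 5 days from day 15 (6 tumors, replicates 4 to 9). The controls received the carrier alone, 0.5% Natrosol, over the same days (3 tumors, replicates 1 to 3). RNA came from pieces of whole frozen tumor, so a value mixes tumor, immune and stromal cells, and a change in the number of cells of a type cannot be told apart from a change in RNA per cell.

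PYHIN proteins typically join a pyrin domain, which binds other pyrin domains, to HIN domains, which bind double-stranded DNA. Aim2 is the cytosolic sensor of the family: on DNA it recruits the adaptor ASC (Pycard) and thereby caspase-1, which matures interleukin-1 beta and interleukin-18 and cuts gasdermin D. The p200 proteins include those of Ifi202b, Ifi203, Ifi204 and Ifi205. Several p200 proteins lie largely in the nucleus, and several have been linked to interferon induction through STING. In mice the genes form a single tandem cluster, are expressed mainly in hematopoietic cells, and many are raised by interferon.

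In the mm9 build used for the counts, 11 of the 12 genes lay on chromosome 1 between positions 175281010 and 175961886, while Ifi214 could not be placed by its name. Aim2 opened the cluster at 175281010 to 175396171 on the plus strand, and Ifi205 closed it at 175942129 to 175961886 on the minus strand. Ifi209 stood at 175560990 to 175578059 (plus strand), Ifi207 at 175653814 to 175671878, Ifi204 at 175677424 to 175697050, Ifi211 at 175826486 to 175843053 and Ifi203 at 175850538 to 175872803 (all minus strand). All 11 are annotated as protein coding.

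The promoters show the relatedness of these genes, and they are shown because an interferon-stimulated response element (ISRE) is the DNA site through which interferon acts on most of its targets. The letters GAAANNGAAA were searched on both strands in the 300 bases from 250 before to 50 after each RefSeq start (build GRCm38.p6). They were present in 3.44% of 32851 such windows of all genes, and in at least 1 window of 3.99% of 27025 genes. Of the 7 genes, 6 had a window, and 4 of these 6 held the letters (Ifi207, Ifi205, Ifi211 and Ifi203). Ifi203 also had a window without them. Over all PYHIN genes 8 of the 11 with a window held the letters, among them Ifi208, Ifi213 and Ifi214. The pieces below, each of 60 bases, are written 5′ to 3′ on the strand of the gene, with the matching letters in capitals; for Ifi209, which held no GAAANNGAAA, the capitals mark the shorter core AANNGAAA, present in 23.9% of all windows and part of every ISRE.
Ifi207 (chr1:173741816-173741875, minus strand): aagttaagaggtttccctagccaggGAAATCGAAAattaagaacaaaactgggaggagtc
Ifi205 (chr1:174031855-174031914, minus strand): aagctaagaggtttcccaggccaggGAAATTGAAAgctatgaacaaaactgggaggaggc
Ifi211 (chr1:173913049-173913108, minus strand): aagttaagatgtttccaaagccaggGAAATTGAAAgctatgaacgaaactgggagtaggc
Ifi203 (chr1:173942493-173942552, minus strand): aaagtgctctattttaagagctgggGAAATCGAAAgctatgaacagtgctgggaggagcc
Mndal (chr1:173880189-173880248, minus strand): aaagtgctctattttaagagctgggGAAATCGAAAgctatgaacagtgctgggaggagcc
Ifi209 (chr1:173630756-173630815, plus strand): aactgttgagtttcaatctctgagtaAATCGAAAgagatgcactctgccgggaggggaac

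The element began 41 bases before the annotated start in Ifi207, 37 in Ifi211, 35 in Ifi203, 36 in Mndal and 134 in Ifi205. The pieces of Ifi203 and Mndal were identical over all 60 bases. Those of Ifi205 and Ifi211 shared 54 of 60 bases, those of Ifi207 and Ifi205 shared 52, and those of Ifi207 and Ifi211 shared 50. Ifi205 and Ifi211 carried the same 10 letters. The windows of Aim2 and Ifi202b held neither set of letters. A match is only a match of letters, and nothing about binding was measured.

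Of the 7 genes, all passed the filter on low counts, 4 were called higher with BI 853520 (Ifi207, Ifi205, Ifi209 and Aim2; edgeR's quasi-likelihood test, Benjamini-Hochberg adjusted p of at most 0.05) and 0 lower. Over all 13966 genes tested, 14.6% were called higher and 14.1% lower. With the cutoffs used in the study, an unadjusted p of at most 0.05 and a log2 fold change of at least 0.58, 3 of the 7 genes counted as higher (Ifi207, Ifi205 and Ifi209), beside 9.59% of all genes tested, and 0 as lower, beside 3.57%. All 6 treated tumors lay above all 3 vehicle tumors for 4 of the 7 genes, beside 14.1% of all genes, and all 6 lay below for 0, beside 14% of all genes. The median log2 fold change was 0.42 for the 7 genes and -0.0037 for all genes tested. Because the names were picked from this contrast, nothing is read from these shares. Levels are given below as CPM, the reads of a gene scaled to 1000000 counted reads with TMM factors, and fold changes come from the edgeR fit.

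**Figure D1:**
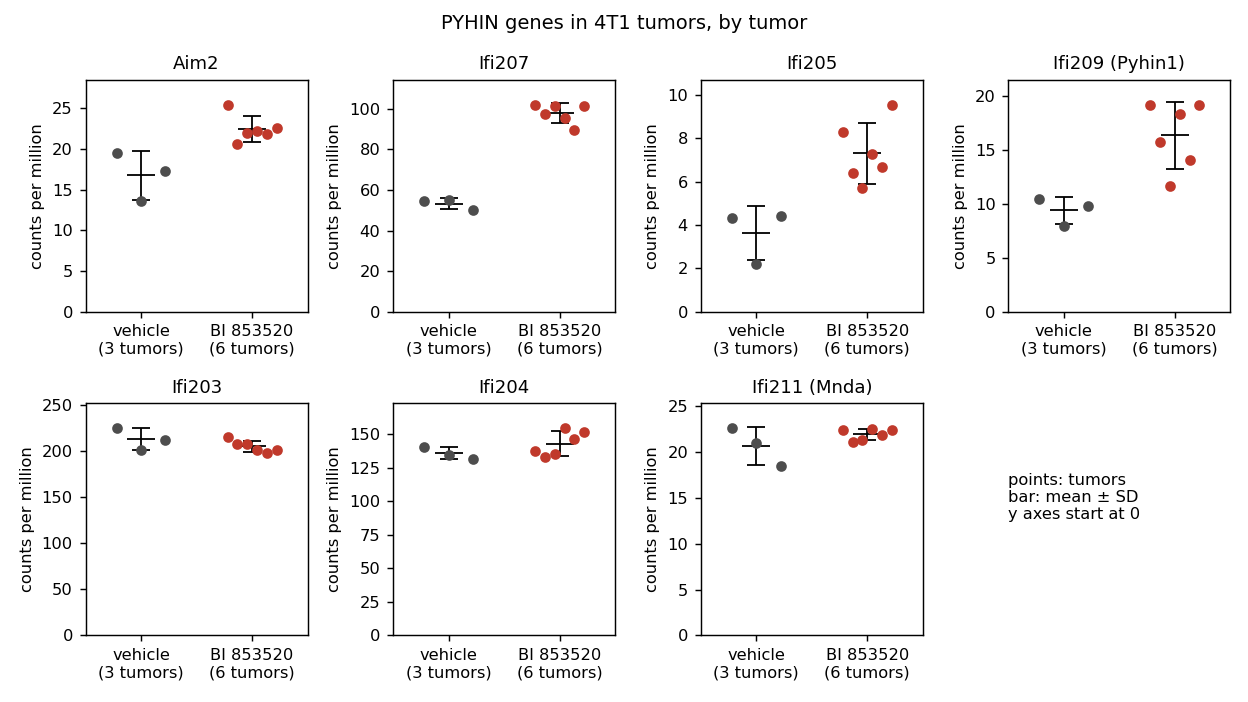
CPM of the 7 PYHIN genes in each tumor, with vehicle tumors in gray and BI 853520 tumors in red, and bars for the mean ± SD of 3 and 6 tumors. The groups are separate for Aim2, Ifi207, Ifi205 and Ifi209 (upper row) and overlap for Ifi203, Ifi204 and Ifi211 (lower row).

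Aim2, the inflammasome sensor, had 19.5, 13.5 and 17.3 CPM in the vehicle tumors. In the treated tumors it ranged from 20.6 to 25.5 CPM, with a median of 22.1. Every treated tumor exceeded every vehicle tumor, but the highest vehicle tumor and the lowest treated tumor were close to each other. The mean rose from 16.8 ± 3.01 to 22.4 ± 1.62 CPM (SD, n = 3 and 6), a log2 fold change of 0.42 ± 0.11 (SE), or 1.34-fold. Vehicle replicate 2 was the lowest of the 9 tumors, and without it the log2 fold change was 0.29 and the call was lost. Of the 50-base pieces of the Aim2 exons, 0.284% occurred again within the cluster.

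Ifi207, a nuclear protein with pyrin and HIN domains that has been linked to cytokine transcription, showed the change with the smallest standard error among the 4 called genes. It had 54.7, 54.9 and 50.2 CPM in the vehicle tumors. The treated tumors lay between 89.3 and 102 CPM, with a median of 99.4. The groups were far apart compared with the spread within each of them, the lowest treated tumor being well above the highest vehicle tumor. The means were 53.2 ± 2.67 and 97.9 ± 4.94 CPM (SD, n = 3 and 6), and the log2 fold change was 0.88 ± 0.062 (SE), or 1.84-fold. It remained between 0.84 and 0.91 whichever tumor was left out.

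Ifi205, whose product p205 has been linked to the expression of ASC in macrophages, was expressed at a much lower level. The vehicle tumors had 4.31, 2.19 and 4.42 CPM, from 94, 49 and 150 reads. The treated tumors ranged from 5.70 to 9.56 CPM, with a median of 6.98. No treated tumor fell within the vehicle range, and the spread within both groups was wide. The log2 fold change was 1.00 ± 0.23 (SE), or 1.99-fold, and it moved between 0.74 and 1.17 when single tumors were left out. Of the 50-base pieces of its exons, 52.6% occurred again in the cluster. Reads from such pieces could have been lost, since only uniquely placed reads were counted.

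Ifi209, the gene also called Pyhin1, had 10.4, 7.96 and 9.78 CPM in the vehicle tumors. In the treated tumors the range was 11.6 to 19.2 CPM and the median 17.1. The groups did not overlap, although BI 853520 replicate 6 came close to vehicle replicate 1. The log2 fold change was 0.80 ± 0.16 (SE), or 1.74-fold. For this gene 36.9% of the 50-base exon pieces were repeated within the cluster.

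The remaining 3 genes fell outside the threshold. Ifi203, an interferon-inducible nuclear protein, had 224, 201 and 212 CPM in the vehicle tumors and 198 to 215 CPM in the treated tumors (median 204). These groups overlapped, with 3 of the 6 treated tumors below all vehicle tumors and a log2 fold change of -0.05 ± 0.054 (SE). Ifi204, the p204 protein most often set beside human IFI16 and linked to interferon induction through STING, had 141, 135 and 132 CPM in the vehicle tumors. In the treated tumors Ifi204 ranged from 133 to 155 CPM (median 142), with 3 of the 6 above all vehicle tumors, and the log2 fold change was 0.08 ± 0.062 (SE). Ifi211, the mouse gene known as Mnda after a myeloid nuclear antigen, had 22.6, 21.0 and 18.5 CPM in the vehicle tumors. Its treated tumors fell in a narrow band from 21.1 to 22.5 CPM (median 22.1), inside the vehicle range, with a log2 fold change of 0.09 ± 0.076 (SE). Ifi211 had the largest share of 50-base exon pieces repeated in the cluster, 80.9%, against 30.9% for Ifi204 and 29.9% for Ifi203.

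The other members of the family were not among the names looked up first, but they were listed with earlier results of these data known. Ifi202b carries HIN domains without a pyrin domain and restrains Aim2 by competing for DNA. Its 50-base exon pieces were unique in the cluster, with 0 of 1453 repeated. It had 269, 316 and 244 CPM in the vehicle tumors and 224 to 276 CPM in the treated tumors (median 249.6). The log2 fold change of Ifi202b was -0.14 ± 0.085 (SE; edgeR adjusted p = 0.243). Mndal, the MNDA-like gene, had 94.6, 89.2 and 98.2 CPM in the vehicle tumors and 94.8 to 113 CPM in the treated tumors, a log2 fold change of 0.13 ± 0.069 (edgeR adjusted p = 0.174). The gene spans of Mndal and Ifi203 overlap on the minus strand, but only 37 bases of their annotated exons coincide.

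Ifi208 and Ifi213, also named Pydc3 and Pydc4 after their pyrin domain, were barely expressed. Ifi208 had 1.47, 1.16 and 1.44 CPM in the vehicle tumors and 1.20 to 3.26 CPM in the treated tumors, a log2 fold change of 0.67 ± 0.32 (SE; edgeR adjusted p = 0.142). Ifi213 had at most 4 reads in any tumor and was not tested. Ifi214 had 1.01, 0.760 and 0.530 CPM in the vehicle tumors, from 22, 17 and 18 reads, and 0.938 to 2.34 CPM in the treated tumors. It passed the test with a log2 fold change of 1.03 ± 0.34 (SE; edgeR adjusted p = 0.0389), and 5 of the 6 treated tumors lay above all vehicle tumors. The call of Ifi214 was lost when vehicle replicate 2 (adjusted p = 0.0963), vehicle replicate 3 (0.167), or BI 853520 replicate 4 (0.0601), replicate 7 (0.0729) or replicate 9 (0.0597) was left out of the edgeR fit, and its adjusted p ranged from 0.0226 to 0.167 over the alternatives.

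**Figure D2:**
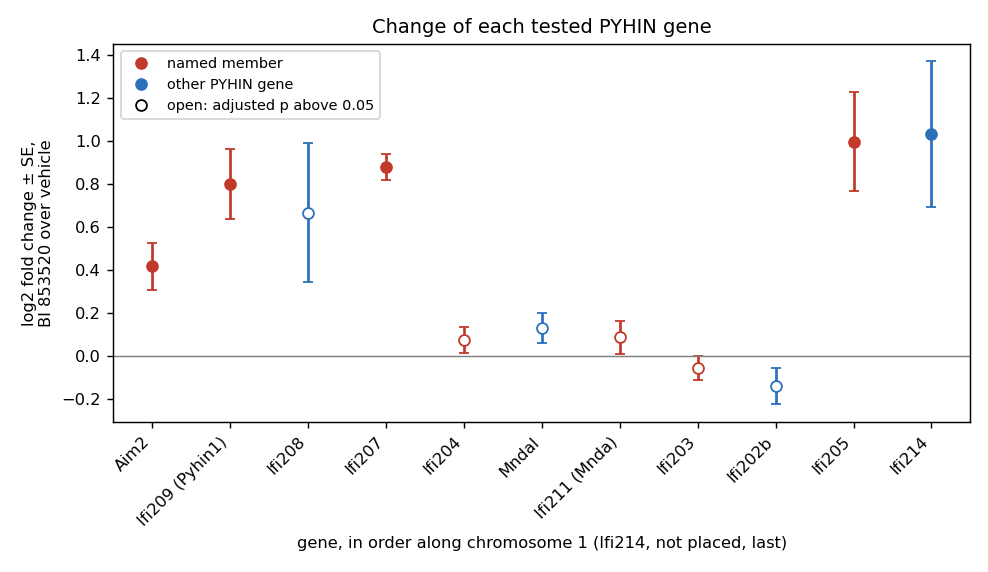
Log2 fold change of the 11 tested PYHIN genes, BI 853520 over vehicle, with the standard error of the edgeR fit, in their order along chromosome 1 and with the unplaced Ifi214 last. Called genes (filled) sit between 0.42 and 1.03 and stand at both ends and in the middle of the cluster. Ifi208 (open), between Ifi209 and Ifi207, lies at 0.67, while the adjoining Ifi204, Mndal, Ifi211, Ifi203 and Ifi202b (open) stay between -0.14 and 0.13.

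Along the chromosome the genes with a call were not an unbroken block. At the proximal end Aim2 (0.42), Ifi209 (0.80), Ifi208 (0.67, not called) and Ifi207 (0.88) followed each other among the tested genes. Ifi207 and Ifi204 are neighbors on the same strand, with log2 fold changes of 0.88 and 0.08. At the distal end Ifi205 (1.00) follows Ifi202b (-0.14). Within 500000 bases of the cluster 8 further genes had an entry, of which Fcer1a, Cadm3 and Ackr1 had the highest mean CPM. Fcer1a, the IgE receptor chain of mast cells, rose from 0.622 ± 0.263 to 4.11 ± 3.39 CPM (SD, n = 3 and 6; log2 fold change 2.76, edgeR adjusted p = 0.0211), a call lost with limma-voom (adjusted p = 0.105) and without vehicle replicate 2 (0.0692) or vehicle replicate 3 (0.0928). Cadm3, an adhesion molecule whose gene overlaps Aim2 on the opposite strand, rose from 0.760 ± 0.305 to 1.81 ± 0.531 CPM (log2 fold change 1.22, edgeR adjusted p = 0.0206), a call lost without vehicle replicate 1 (adjusted p = 0.0843) or vehicle replicate 3 (0.0534). Ackr1, the atypical chemokine receptor, had a log2 fold change of 0.29 (edgeR adjusted p = 0.758).

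Levels were compared between genes as RPKM, the CPM per 1000 bases of the gene length given in the table. In the vehicle tumors Ifi202b was highest (154 ± 20.3 RPKM, SD, n = 3), followed by Ifi204 (59.2 ± 1.94), Ifi203 (56.1 ± 3.08) and Mndal (49.3 ± 2.38). Ifi204 and Ifi203 overlapped in range and cannot be ordered. Ifi207 (15.3 ± 0.765) and Ifi211 (12.5 ± 1.26) came next, then Aim2 (6.61 ± 1.19), and Ifi209 (2.69 ± 0.368) and Ifi205 (2.26 ± 0.778) overlapped at the lower end. The genes without a call thus included the abundant ones, and Ifi207 was the highest of the called genes, at no more than 15.8 RPKM in a vehicle tumor. In the treated tumors Ifi207 reached 28.1 ± 1.42 RPKM, still below Ifi204 (62.4 ± 3.98), Mndal (54.02 ± 4.14) and Ifi203 (54.01 ± 1.67), whose ranges overlapped. These RPKM values take the full gene length, although the part of it that is unique differs between the genes as given above.

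Summed over the 7 genes, the vehicle tumors had 435 to 476 CPM and the treated tumors 498 to 529 CPM. The groups did not overlap, and Ifi207 made up 72.3% of the difference between their means of 452 and 514 CPM. The share of Ifi207 in this sum was 11.3% to 12.6% in the vehicle tumors and 17.9% to 20.1% in the treated tumors. Ifi203 gave the largest part in every tumor, from 46.1% to 47.8% with vehicle and from 38.03% to 41.3% with BI 853520. Over all 12 PYHIN genes, which adds the abundant Ifi202b, the sums were 788 to 843 CPM and 820 to 907 CPM, and the groups overlapped. The mean log2 CPM of the 7 genes, which counts each gene equally, was 0.46 higher in the treated tumors, and between 0.38 and 0.53 higher with any single tumor left out.

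Markers of several hematopoietic cell types moved in the same comparison, which bears on any gene that such cells express. The counts of markers stand beside 14.6% called higher and 14.1% called lower over all genes tested. Of the 12 macrophage markers 10 were called higher and 1 lower, with a median log2 fold change of 0.86, and their summed level was 2991 to 3852 CPM in the vehicle tumors and 5229 to 6995 CPM in the treated tumors. Lyz2, the lysozyme of macrophages, rose from 1209 ± 137 to 1984 ± 471 CPM (SD, n = 3 and 6; edgeR adjusted p = 0.00903), a call lost without vehicle replicate 3 (adjusted p = 0.0507). Cd14, the co-receptor for endotoxin, fell from 151 ± 15.9 to 106 ± 9.38 CPM (edgeR adjusted p = 0.000886). None of the 12 macrophage markers was at 0 in any tumor. How much of the change of the PYHIN genes these cells account for was not tested.

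As a description, each PYHIN gene was set against the mean log2 CPM of the 12 macrophage markers in the same tumor. On this scale the difference between groups was 0.11 for Ifi207, 0.27 for Ifi205, 0.02 for Ifi209 and -0.34 for Aim2. For these 4 genes the ranges of the groups overlapped, with 4 of 6 treated tumors above all vehicle tumors for Ifi207 and 1 of 6 below all of them for Aim2. Ifi203 (-0.82), Ifi204 (-0.69), Ifi211 (-0.68), Mndal (-0.64) and Ifi202b (-0.90) were lower relative to the macrophage markers in all 6 treated tumors. For comparison, the mean log2 CPM of the macrophage markers was itself 0.77 higher in the treated tumors.

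**Figure D3:**
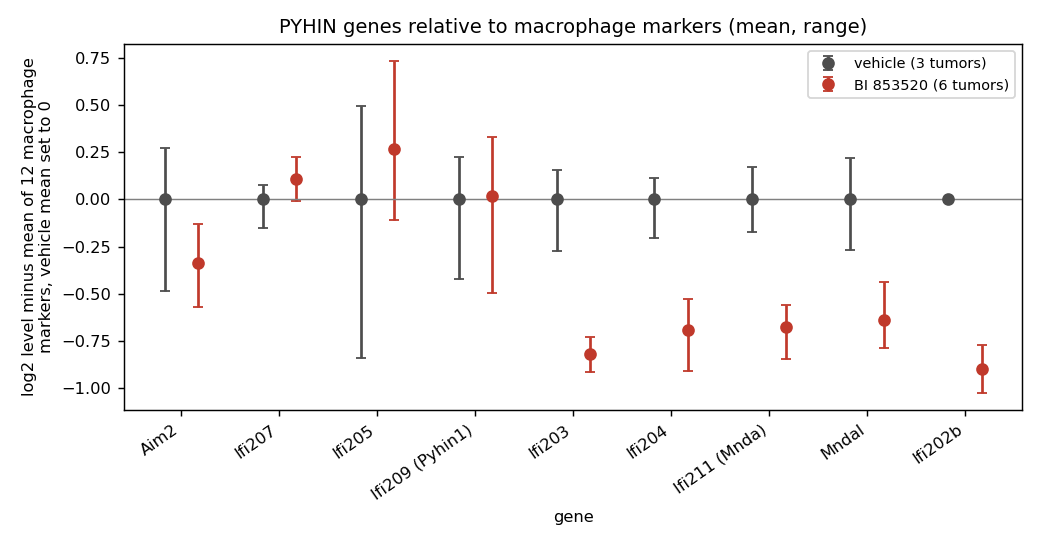
Log2 level of 9 PYHIN genes minus the mean log2 level of 12 macrophage markers in the same tumor, with the vehicle mean of each gene set to 0; points are group means and bars the lowest and highest tumor. Ifi203, Ifi204, Ifi211, Mndal and Ifi202b lie between -0.64 and -0.90 in the treated tumors, while Ifi207, Ifi205 and Ifi209 lie between 0.02 and 0.27.

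The other marker lists ran as follows, beside the same 14.6% higher and 14.1% lower over all genes tested. Called higher were 6 of 8 dendritic cell markers, 5 of 8 monocyte markers, 7 of 8 T cell markers, 6 of 7 NK cell markers, 3 of 5 B cell markers and 5 of 6 mast cell markers, with 0 called lower in each. Of the plasmacytoid dendritic cell markers 3 of 6 were called higher, a count that fell to 0 without vehicle replicate 2 or vehicle replicate 3, and their summed level was low, at 4.70 to 8.29 CPM with vehicle and 6.52 to 18.7 CPM with BI 853520. The monocyte count fell to 3 without any 1 vehicle tumor or without BI 853520 replicate 5 or 9, and the B cell count to 1 without vehicle replicate 2, vehicle replicate 3 or BI 853520 replicate 7. With single tumors left out, the dendritic cell count was 4 to 6 and the NK cell count 4 to 7. Neutrophil markers went the other way, with 4 of 7 lower and 0 higher and a summed level of 536 to 762 CPM against 225 to 381 CPM. Of the endothelial markers 3 of 6 were called higher. This became 0 without vehicle replicate 3, 1 without vehicle replicate 1, and 5 without BI 853520 replicate 8 or with DESeq2. The single higher call among 6 fibroblast markers was lost without vehicle replicate 1 or 2 or BI 853520 replicate 4, 7, 8 or 9. It became 2 without vehicle replicate 3 or BI 853520 replicate 5 or 6, with limma-voom, and without the filter on low counts. The single one among 6 adipocyte markers was lost without any 1 vehicle tumor and became 2 without BI 853520 replicate 4. Of 5 erythroid markers 0 were called by edgeR, DESeq2 or limma-voom, with an unadjusted p under 0.05 for 0 of them. Of 6 epithelial markers of the tumor cells 2 were called lower, among them Krt18 (578 ± 57.7 to 409 ± 58.3 CPM; edgeR adjusted p = 0.00636). The 2 became 1 without vehicle replicate 1 or 2 or BI 853520 replicate 6, 7, 8 or 9, and with the filter of at least 1 CPM. With DESeq2, and without BI 853520 replicate 4, 1 epithelial marker was called higher. Of these epithelial markers Epcam, Cldn7, Krt5 and Krt14 had group means of at most 4.42 CPM, so the epithelial label of these tumors rests on Krt8 and Krt18.

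Genes of the pathways around the PYHIN proteins were taken from lists of their known members. For each list the counts called stand beside 14.6% called higher and 14.1% called lower over all genes tested. The inflammasome list had 20 tested genes, of which 12 were called higher and 2 lower, with a median log2 fold change of 0.36, and the 2 lower calls became 1 without vehicle replicate 1 or vehicle replicate 3. By smallest p these were Nlrp1b, a sensor of protease activity (log2 fold change 0.98 ± 0.10, SE, edgeR adjusted p = 5.24e-05), and Card9, an adaptor of fungal sensing (0.92 ± 0.13, edgeR adjusted p = 0.000396). Next came Naip2, a sensor of bacterial protein (0.44 ± 0.078, edgeR adjusted p = 0.00166). Ninj1, the membrane rupture protein and the list's highest RPKM, had 0.27 ± 0.094 (adjusted p = 0.0483), and its adjusted p ranged from 0.0244 to 0.213 over the alternatives, the highest without vehicle replicate 3.

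The direct partners of Aim2 were looked at for their role, after their values had been seen. Pycard, which encodes ASC, rose from 14.1 ± 2.71 to 24.7 ± 4.62 CPM (SD, n = 3 and 6), a log2 fold change of 0.81 ± 0.17 (SE; edgeR adjusted p = 0.00398), with all 6 treated tumors above the vehicle tumors. Casp1, the protease, had 122 ± 0.0724 and 133 ± 5.30 CPM and was not called (edgeR adjusted p = 0.108), although all 6 treated tumors lay above the vehicle tumors. Gsdmd, the pore protein, had a log2 fold change of 0.18 ± 0.055 (edgeR adjusted p = 0.0283), a call lost without vehicle replicate 2 (adjusted p = 0.125), vehicle replicate 3 (0.0903) or BI 853520 replicate 7 (0.0535). Il1b, which encodes the cytokine precursor, fell from 141 ± 17.4 to 88.7 ± 17.2 CPM (edgeR adjusted p = 0.00475), with all 6 treated tumors below the vehicle tumors. Il18 was not called (log2 fold change 0.14, edgeR adjusted p = 0.395). Of these partners Pycard thus stood higher in the treated tumors and Il1b lower. Casp1 and Il18 were not called, and the call of Gsdmd hung on single tumors.

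In the cGAS-STING list, a second route from cytosolic DNA to interferon, 7 of 17 tested genes were called higher and 1 lower (median log2 fold change 0.15). The 7 became 4 without vehicle replicate 1, 3 without vehicle replicate 2 and 4 without vehicle replicate 3, and the 1 lower call was lost in each case and without BI 853520 replicate 4, 7 or 9. Trex1, the exonuclease that removes cytosolic DNA, rose by a log2 fold change of 0.61 ± 0.083 (SE; edgeR adjusted p = 0.000295). Enpp1, which degrades the messenger cGAMP, rose by 0.83 ± 0.15 (edgeR adjusted p = 0.00161), and Sting1, the receptor of that messenger, by 0.32 ± 0.069 (edgeR adjusted p = 0.00533). Samhd1, a dNTP hydrolase and the list's highest RPKM, had 0.26 ± 0.080 (edgeR adjusted p = 0.0308), a call lost without any 1 vehicle tumor or BI 853520 replicate 7, with an adjusted p of up to 0.123. The DNA sensor Cgas itself, named after its values had been seen, was not called (log2 fold change 0.15, edgeR adjusted p = 0.33).

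Of 23 RNA and other nucleic acid sensors 8 were called higher and 4 lower, with a median of 0.01. By smallest p, Tlr8, an endosomal receptor, had a log2 fold change of 1.19 ± 0.081 (SE; edgeR adjusted p = 8.76e-06) and Tlr9, the receptor of CpG DNA, 1.25 ± 0.15 (edgeR adjusted p = 0.000137). Unc93b1, the chaperone that carries these receptors to endosomes and the list's highest RPKM, rose by 1.02 ± 0.11 (edgeR adjusted p = 9.12e-05).

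The interferon lists bear on a family that interferon can raise. Of 15 receptor and JAK-STAT genes 4 were called higher and 1 lower (median 0.13), the 4 becoming 2 without vehicle replicate 1 or vehicle replicate 2. The kinase gene Tyk2 rose (log2 fold change 0.42 ± 0.061, SE; edgeR adjusted p = 0.000461), as did the receptor chain Ifngr1 (0.51 ± 0.086; edgeR adjusted p = 0.0012), and the kinase gene Jak2 fell (-0.41 ± 0.067; edgeR adjusted p = 0.00102).

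Of 22 classical interferon-stimulated genes 3 were called higher and 1 lower (median 0.10). The 3 higher calls were near the share over all genes tested (14.6%), and the 1 lower call was below it (14.1%). The 3 became 1 without vehicle replicate 1 or vehicle replicate 2 and 6 without BI 853520 replicate 5. The 1 lower became 2 without vehicle replicate 1 or BI 853520 replicate 8. Isg20, an exonuclease, fell (log2 fold change -0.52 ± 0.087, SE; edgeR adjusted p = 0.00118) and Ifi27l2a rose (0.85 ± 0.17; edgeR adjusted p = 0.00305). Mx1, an antiviral GTPase, had 0.55 ± 0.15 (edgeR adjusted p = 0.0188), a call lost without vehicle replicate 1 (adjusted p = 0.0646) or vehicle replicate 2 (0.0695). Bst2, the tetherin gene and the list's highest RPKM, had -0.09 ± 0.085 (edgeR adjusted p = 0.467).

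Of 14 interferon-inducible GTPases 2 were called higher, Gbp8 (log2 fold change 0.92 ± 0.13, SE; edgeR adjusted p = 0.000432) and Iigp1 (0.58 ± 0.12; edgeR adjusted p = 0.00495), and 1 lower, Gbp9 (-0.34 ± 0.12; edgeR adjusted p = 0.0478, and up to 0.277 without vehicle replicate 3), with a median of 0.05. The call of Gbp9 was lost under 11 of the alternatives. The 2 higher calls were near the share over all genes tested (14.6%), and the 1 lower call was below it (14.1%). Gbp2, the highest RPKM of this list, had -0.08 ± 0.11 (edgeR adjusted p = 0.597).

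Of 12 myeloid transcription factors 9 were called higher and 0 lower, with a median of 0.72. Irf5 (log2 fold change 0.71 ± 0.083, SE; edgeR adjusted p = 0.00012) and Cebpa (0.82 ± 0.105; adjusted p = 0.000217) were among those with the smallest p. Cebpb, the highest RPKM, had -0.39 ± 0.14 (edgeR adjusted p = 0.0575) and was called lower without vehicle replicate 3 (adjusted p = 0.0106) or BI 853520 replicate 8 (0.0226), without the filter on low counts (0.0485) and by DESeq2 (0.029).

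**Figure D4:**
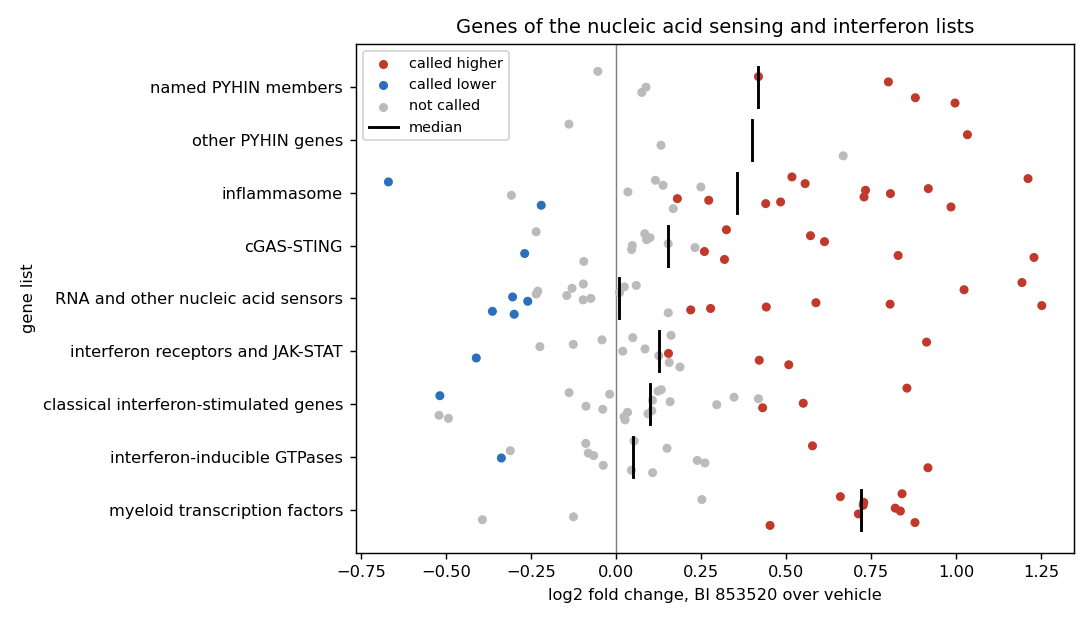
Log2 fold changes, BI 853520 over vehicle, of the tested genes in the 7 named PYHIN genes, the other PYHIN genes and 7 pathway lists, each point being a gene and the black line the median of the list. The medians are 0.42 for the named PYHIN genes, 0.36 for the inflammasome list, 0.72 for the myeloid transcription factors, and between 0.01 and 0.15 for the cGAS-STING, RNA sensor and interferon lists.

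Within the groups, the genes did not vary as a single unit. Each gene's log2 CPM was taken as its deviation from the group mean, and Pearson's r was computed over the 9 tumors, which shared library and depth across genes. Over the 21 pairs of the 7 genes r ranged from -0.34 to 0.81 with a median of 0.32, and 18 of the 21 were positive. Ifi205, Aim2 and Ifi209 went together, with r from 0.58 to 0.81 (3 pairs), and vehicle replicate 2 was the lowest vehicle tumor for all 3 of them. This was not particular to these called genes, since the uncalled Ifi208 and Mndal had r from 0.56 to 0.76 with them. Ifi207 had r between -0.08 and 0.09 with Ifi205, Aim2 and Ifi209. Aim2 and Ifi203 had r of 0.81 although only Aim2 was called, and whether their changes differ was not tested. The median r was 0.19 without vehicle replicate 1 and 0.49 without vehicle replicate 3.

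**Figure D5:**
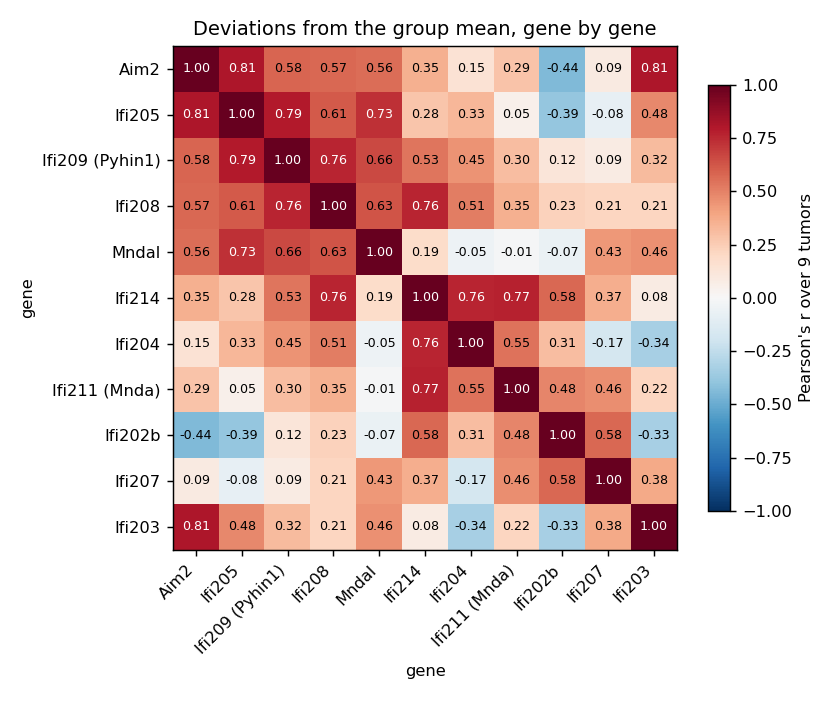
Pearson's r between the deviations of 11 PYHIN genes from their group means (log2 CPM, 9 tumors), red for positive and blue for negative values. Aim2, Ifi205 and Ifi209 form a positive block at the upper left, which the uncalled Ifi208 and Mndal extend (r from 0.56 to 0.76 with these 3 genes). Ifi207 has values near 0 with Aim2, Ifi205 and Ifi209.

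Measured the same way, the mean of the 7 genes had r of 0.87 with the mean of the 6 plasmacytoid dendritic cell markers, 0.80 with that of the 7 NK cell markers and -0.54 with that of the 12 macrophage markers (9 tumors). These were the 2 highest and the lowest of 14 marker lists, and the next highest were monocyte (0.60), mast cell (0.59), fibroblast (0.58) and tumor epithelium markers (0.48). The value for the macrophage markers was negative within the groups, although their mean and the PYHIN mean were both higher in the treated group. Among 12177 genes with a mean log2 CPM of at least 1, the 5 with the highest r to the PYHIN mean were Gpr171 (0.967), Kcna3 (0.965), Arhgap19 (0.963), Ttc7 (0.958) and Ap1s3 (0.948). Gpr171 is a G protein-coupled receptor and Kcna3 a potassium channel, and both were higher in the treated tumors (log2 fold changes of 1.16 and 0.90), as was Ttc7 (0.51), while Arhgap19 (-0.14) and Ap1s3 (-0.20) were not called. With 9 tumors these values only rank the genes.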

How the data were processed

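RNA from 9 frozen tumor pieces was sequenced by the authors (stranded mRNA libraries, paired-end, 50 cycles). They aligned reads to mm9 with STAR, kept unique hits, and deposited raw counts of reads starting in the exons of RefSeq genes, made with QuasR; whether the strand was used in counting is not given in the sources used here. According to the study, tumors of insufficient RNA quality were left out. The totals were 16931607 to 33850245 counts per tumor, and 3 counts corresponded to 0.0886 to 0.177 CPM (counting error only).

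Gene IDs were named from RefSeq (18700 of 18755 matched), and mm9 positions came from GENCODE. Genes were filtered (filterByExpr, minimum count 10, minimum total 15), scaled by TMM and tested with edgeR 4.0.16 in R 4.3.3, with 1 coefficient for treatment. Log2 CPM used a prior count of 2. In a simulation of this comparison, 176 of 197 changed genes and 7 others of 13869 genes were called. These counts were not split by fold change. The share called at a fold change as small as that of Aim2 was not tested. Alternatives were RLE factors, library size alone, no filter, at least 1 CPM in at least 3 tumors, DESeq2 1.42.0, limma-voom 3.58.1, a prior count of 0.5, and each tumor left out. P-values measure only the spread between these tumors, since the labels do not say that each came from a separate animal. Read sharing counted 50-base pieces of exons found again in the cluster in mm9, a genome of another strain than BALB/c. A repeat could lie in another gene, in the same gene, in an intron or between genes. The mates of read pairs were not considered, so the shares are not shares of reads affected. Sequences elsewhere in the genome were not searched.

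The PYHIN names and the lists were chosen with earlier results of these data known. Named were all PYHIN genes, per pathway list the 3 genes of smallest p and that of highest mean RPKM, marker genes of highest mean CPM, the 5 genes closest to the PYHIN mean, and up to 3 neighbors within 500000 bases. Some genes that this rule names are not reported here.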

Additional observations from a re-analysis of the deposited data

How the results depend on the processing

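The log2 fold changes of all 11 tested PYHIN genes kept their sign under every alternative run. The other prior count enters only log2 CPM, so it could not alter a call or a fold change. The calls of Ifi207, Ifi205, Ifi209 and Aim2 held under both other scalings, both other filters, DESeq2 and limma-voom, and the call of Aim2 was lost without vehicle replicate 2. These runs used the same counts from which the names were picked, so calls that held are no evidence of a change. With each tumor left out in turn, 3 to 4 of the 7 genes were called, 3 passed the cutoffs of the study, 4 to 5 had groups without overlap, the mean log2 difference was 0.377 to 0.532, and the median correlation within groups was 0.186 to 0.489. Over the pathway lists 34 to 47 genes were called higher and 7 to 11 lower, and over the marker lists 35 to 54 higher and 6 to 8 lower, against 46, 10, 50 and 7 with all tumors. The causes of these shifts were not tested, except that fewer tumors enter each fit. No paired analysis was possible because the vehicle tumors (replicates 1 to 3) and the treated tumors (replicates 4 to 9) share no replicate number. Depth limits Ifi213, with at most 4 reads in a tumor, and Ifi208 and Ifi214, at 17 to 69 reads.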

Other observations

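Ifnb1, the interferon beta gene, had 4, 7 and 11 reads in the vehicle tumors and 0 to 8 reads in the treated tumors, and was too low to be tested. The RefSeq window of Ifi205 holds GAAANNGAAA a second time, on the other strand and after the start.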
